A study of Mus musculus with 24 samples.

Results

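The expression of 10 genes that act in building the nephron was followed through 3 ages of the postnatal mouse kidney. Six2, Cited1, Eya1, Sall1, Osr1, Pax2, Pax8, Lhx1, Gdnf and Ret were chosen by gene symbol, and all 10 have a row among the 41442 rows of each count table. RNA-seq of whole kidneys covered postnatal day 7 (PND7), day 14 (PND14) and day 28 (PND28). The kidneys came from wild-type (WT) mice and from mice labelled Glis3 KO, which the study's design text calls null for Glis3, the gene of a zinc finger transcription factor. The labels give no allele, strain or sex and name no treatment. Count columns were at hand for 3 WT and 2 KO libraries at PND7, 5 and 5 at PND14, and 4 and 4 at PND28. A further KO sample of PND7, replicate 3, carries a label that calls it a removed outlier and was not analysed here. The question addressed is how the 10 genes decline in WT kidneys after PND7, and whether kidneys labelled KO keep or regain them.

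In the mouse, new nephrons arise from progenitor cells of the cap mesenchyme, which sits on the tips of the branching ureteric bud and is used up soon after birth. The progenitors secrete GDNF, which acts through the receptor RET on the tip cells and drives branching, and the tips in turn send WNT signals that turn progenitors into renal vesicles, the first epithelial stage of a nephron. Six2, Cited1, Eya1, Sall1 and Osr1 act in the progenitors, Lhx1 in the renal vesicle and the nephric duct, and Pax2 and Pax8 across both lineages. Some of the 10 genes are also transcribed in the tubules and collecting ducts of the mature kidney, so a level in whole tissue is not by itself a level in progenitors.

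At PND28, 65.7% of all genes tested differed between the groups at an edgeR adjusted p under 0.05. Of the 8 members tested 4 did so, Pax2 and Pax8 being higher and Sall1 and Lhx1 lower in the libraries labelled KO. The 250 bases upstream of a RefSeq transcript start of each (GRCm38.p6) are shown 5′ to 3′ on the gene's strand, so that the control regions of the genes that moved up and of those that moved down stand side by side. Capitals mark the CCAAT box (CCAAT) and the GC box (GGGCGG), each searched on both strands. The core of the GLIS binding motif (TGGGGGGT, both strands) was searched too, and its matches would also be in capitals. The windows are chr19:44755502-44755751 (plus strand) for Pax2, at the nearest listed start before the annotated gene start, chr2:24475600-24475849 (minus strand) for Pax8, chr11:84525535-84525784 (minus strand) for Lhx1, and chr8:89044163-89044412 (minus strand) for Sall1, at the listed start farthest upstream.
Pax2: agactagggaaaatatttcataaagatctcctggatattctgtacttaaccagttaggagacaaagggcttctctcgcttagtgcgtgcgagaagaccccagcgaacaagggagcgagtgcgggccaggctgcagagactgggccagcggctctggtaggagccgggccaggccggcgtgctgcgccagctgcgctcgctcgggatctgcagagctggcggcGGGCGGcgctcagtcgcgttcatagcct
Pax8: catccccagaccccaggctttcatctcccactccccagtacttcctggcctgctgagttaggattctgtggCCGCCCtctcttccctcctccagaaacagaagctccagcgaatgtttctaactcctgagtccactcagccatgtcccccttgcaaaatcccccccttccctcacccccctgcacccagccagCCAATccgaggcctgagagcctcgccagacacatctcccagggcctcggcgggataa
Lhx1: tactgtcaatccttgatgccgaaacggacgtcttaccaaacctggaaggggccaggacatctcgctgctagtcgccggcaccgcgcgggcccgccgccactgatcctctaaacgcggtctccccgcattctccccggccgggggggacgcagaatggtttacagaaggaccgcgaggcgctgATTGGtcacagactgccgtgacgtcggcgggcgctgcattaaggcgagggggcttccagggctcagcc
Sall1: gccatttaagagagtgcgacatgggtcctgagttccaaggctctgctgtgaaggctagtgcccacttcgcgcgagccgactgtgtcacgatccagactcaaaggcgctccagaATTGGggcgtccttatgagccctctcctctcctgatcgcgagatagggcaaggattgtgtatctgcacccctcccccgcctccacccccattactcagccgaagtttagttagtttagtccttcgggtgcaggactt
The table held 14 such windows for 7 of the 10 genes, with no entry for Osr1, Ret or Eya1. None of the 14 windows held the letters of the GLIS core, which 446 of all 32851 promoters (1.36%) held. Of the 4 windows shown, those of Pax2 and Pax8 each held 1 GC box, and those of Pax8, Lhx1 and Sall1 each held 1 CCAAT box. The counts depend on the start taken: the other 2 Sall1 windows held 1 and 4 GC boxes and no CCAAT box, and the other 2 Pax2 windows held 0 and 1 GC boxes, so the letters do not part the genes that were higher from those that were lower. Over all promoters 32.7% held a GC box and 33.8% a CCAAT box. These are matches of letters within the window and were not tested for binding.

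Several features of the libraries touch the values that follow. Glis3 itself was not called lower in the libraries labelled KO at any age: it stood at 73.7 ± 4.85 CPM (SD, n = 3) in WT and 67.0 ± 4.62 CPM (n = 2) in KO libraries at PND7 (log2 fold change -0.14, not called), at 76.6 ± 13.3 against 82.2 ± 12.4 CPM (n = 5 each) at PND14 (0.12, not called), and at 90.3 ± 9.94 (n = 4) against 135 ± 5.57 CPM (n = 4) at PND28, where it was called higher (log2 fold change 0.58, SE 0.081, edgeR adjusted p = 7.62e-05). Counts over the whole gene need not fall when part of it is deleted, so they do not check the label, and "KO libraries" means the libraries labelled KO throughout. CPM is a gene's count relative to the size of its library, scaled for composition by the trimmed mean of M-values (TMM), and libraries held 37798686 to 126689315 counts. A gene is called where edgeR's quasi-likelihood test gave an adjusted p under 0.05, with Benjamini-Hochberg adjustment over all genes tested. KO replicate 1 at PND7 stood apart, with a summed level of principal cell and collecting duct markers of 2908 CPM against 976 CPM in KO replicate 2. Reads of Y-linked genes were present in 5 of 5 WT and 2 of 5 KO libraries at PND14, in 2 of 4 and 3 of 4 at PND28 and in all 5 at PND7. Proximal tubule markers, which define the bulk of kidney cortex, were present in every library, with a summed level of 26301 to 32369 CPM in WT and 3251 to 5034 CPM in KO libraries at PND28. At PND14, where 17.2% of all genes were called lower and 19.1% higher, proximal tubule markers were already apart. They summed to 15016 to 18870 CPM in WT and 8710 to 10829 CPM in KO libraries, with 9 of 10 called lower. Tubule injury markers summed to 2045 to 2541 CPM in WT and 3889 to 8410 CPM in KO libraries, with 7 of 8 called higher and 1 lower. The part of these shifts in the PND14 differences of Ret, Sall1, Lhx1 and Osr1 was not tested. In WT at PND28, replicate 4 had an adrenal cortex marker sum of 196 CPM (the others 8.34 to 10.2 CPM, KO libraries 6.07 to 7.49 CPM) and replicate 2 had the highest adipose sum, 52.8 CPM. Without these 2 libraries Pax2, Pax8, Sall1 and Lhx1 were still called. Nothing in the labels says that libraries of a group came from separate animals, so the p-values measure the spread between these libraries. In whole kidney RNA, fewer cells of a type and less RNA per cell cannot be told apart, and each age has its own table, so age and table cannot be told apart either.

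Per kilobase of exon the 10 genes spanned a wide range in WT kidneys at PND7. Pax8 (14.6 ± 1.38 CPM per kb, SD, n = 3) and Sall1 (13.7 ± 0.784) were the most abundant and did not differ beyond their spread. Pax2 (9.30 ± 1.72) and Lhx1 (4.33 ± 0.0841) followed. Cited1 (1.67 ± 0.0116) and Osr1 (0.589 ± 0.0995) were next, and Gdnf (0.336 ± 0.0718) came after them. Eya1 (0.172 ± 0.0278) and Ret (0.169 ± 0.0292) had overlapping values, and Six2 was lowest at 0.0806 ± 0.0422 CPM per kb. By PND28 the order in WT was Sall1 (15.8 ± 2.49), Pax8 (10.8 ± 0.367), Lhx1 (7.84 ± 0.574) and Pax2 (4.37 ± 0.495), and in the KO libraries it was Pax8 (21.1 ± 2.43), Sall1 (10.6 ± 1.51), Pax2 (7.88 ± 0.561) and Lhx1 (4.54 ± 1.24, each n = 4).

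**Figure D1:**
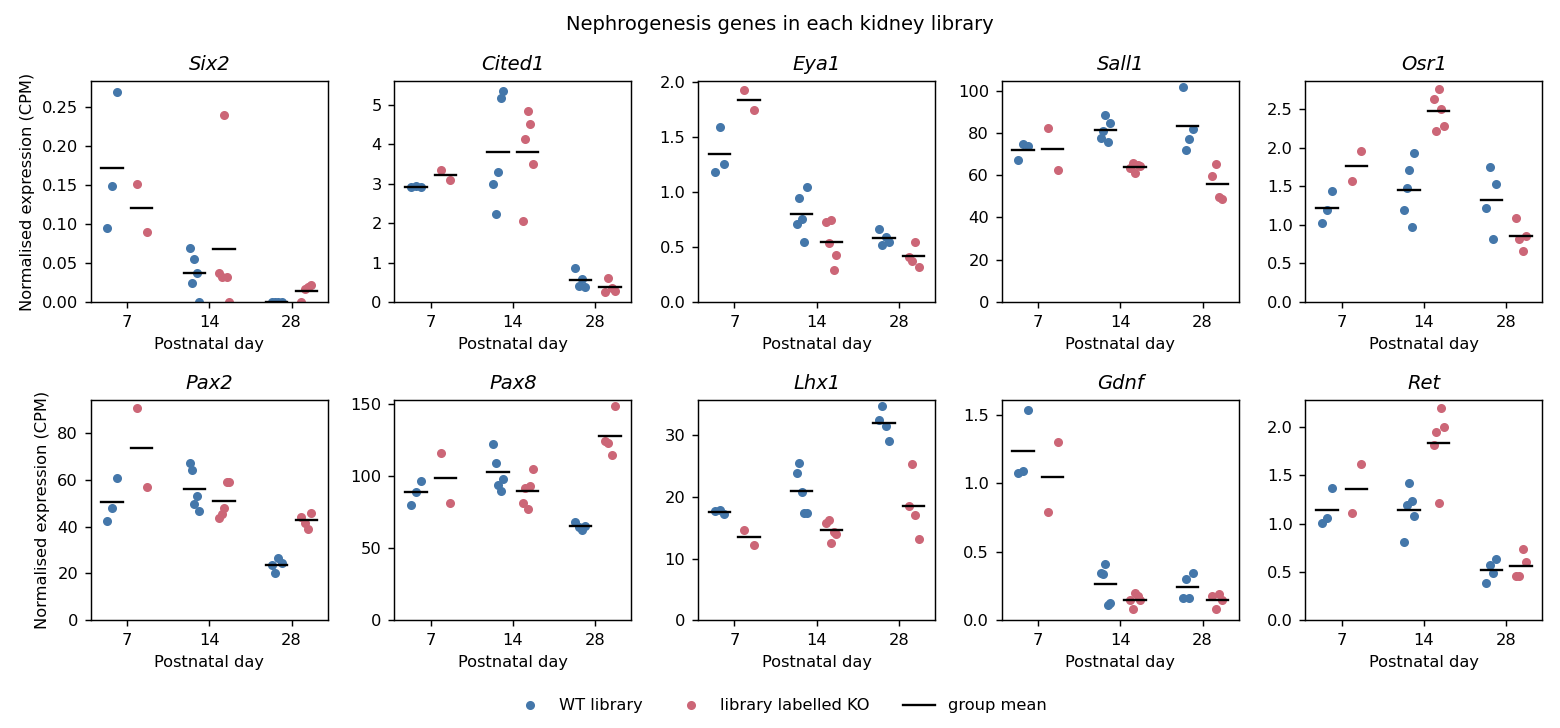
Normalised expression (CPM, linear axes from 0) of the 10 genes against postnatal day, 1 point per library, WT in blue and libraries labelled KO in red, with a line at each group mean. Pax2 and Pax8 points of the KO libraries lie above all WT points at day 28, Sall1 and Lhx1 points lie below them, and Six2 is near 0 in both groups by day 28.

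Six2, the transcription factor that keeps cap mesenchyme cells in the progenitor state, had 8, 22 and 21 counts in the 3 WT libraries at PND7, which is 0.0945, 0.149 and 0.269 CPM in that order of replicates 1 to 3. It had 0 to 4 counts in each WT library at PND14 and 0 in all 4 at PND28, where 3 counts, the level that a count of 0 allows, correspond to at most 0.0983 CPM in the shallowest library. In the joint fit of all 6 groups it fell from PND7 to PND14 in WT (log2 fold change -2.15, SE 0.77, edgeR adjusted p = 0.0234), a call on few counts. It was lost with DESeq2 (adjusted p = 0.0586), with the summed level of Y-linked genes as a covariate (-1.85, adjusted p = 0.0555), without WT replicate 3 at PND7 (-1.71, adjusted p = 0.110), and likewise without WT replicate 2 or 5 at PND14. The KO libraries at PND28 held 0, 1, 1 and 1 counts of Six2. With both groups at or under 3 counts per library no difference was detectable at this depth. At PND14 4 of the 5 KO libraries held 0 to 3 counts and replicate 3 held 19 counts (0.239 CPM). The KO steps of Six2 were not called, from PND7 to PND14 (-0.76, SE 0.85, edgeR adjusted p = 0.508) or from PND14 to PND28 (-2.22, SE 1.06, adjusted p = 0.0849). Without replicate 3 at PND14 the first step was called, and the second was called with the Y-linked covariate (adjusted p = 0.0418) and without replicate 5 at PND14 (adjusted p = 0.0319). KO replicate 3 at PND14 also had the highest podocyte marker sum of its group (773 CPM, the others 427 to 618, WT 727 to 890, no marker of the list at 0 in either group). It had the highest sum of the cap mesenchyme list (281 CPM, the others 206 to 264) and of the stromal progenitor list (1206 CPM, the others 938 to 1068), and the lowest tubule injury sum (3889 CPM, the others 5749 to 8410). The part of these differences in the Six2 value was not tested.

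Cited1, a transcriptional co-activator that marks the least committed progenitors within the cap mesenchyme, was not called between PND7 and PND14 in WT (log2 fold change 0.38) and then dropped. Six2 had 0 to 4 counts in each WT library at PND14, and the cells that Cited1 came from were not tested. The WT libraries stood at 2.92, 2.95 and 2.91 CPM at PND7 and at 2.98, 2.23, 3.29, 5.18 and 5.36 CPM at PND14. At PND28 they stood at 0.854, 0.392, 0.590 and 0.375 CPM, below every earlier library. The log2 fold change from PND14 to PND28 was -2.77 in WT (SE 0.32, edgeR adjusted p = 1.83e-07) and -3.31 (SE 0.32, adjusted p = 1.41e-08) in the KO libraries, which went from 2.05 to 4.84 CPM at PND14 down to 0.263 to 0.605 CPM. KO and WT libraries overlapped at both later ages and Cited1 was not called between them.

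Eya1, a co-activator and phosphatase that works with Six2 and its relatives, fell from PND7 to PND14 in both groups. The WT libraries had 1.18, 1.59 and 1.26 CPM at PND7 against 0.540 to 1.04 CPM at PND14 (log2 fold change -0.75, SE 0.24, edgeR adjusted p = 0.0123). The call was lost without WT replicate 2 at PND7 (-0.60, adjusted p = 0.0853). In the KO libraries Eya1 went from 1.93 and 1.75 CPM to 0.290 to 0.743 CPM (-1.74, SE 0.27, adjusted p = 2.28e-05). The difference between these steps had an unadjusted p of 0.0134 and did not pass adjustment (-0.996, SE 0.37, edgeR adjusted p = 0.126).

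Gdnf, the ligand made by the cap mesenchyme, fell early in both groups. It stood at 1.07, 1.09 and 1.54 CPM in WT at PND7 and at 0.347, 0.340, 0.410, 0.112 and 0.128 CPM at PND14, with no overlap. On the log2 scale this was a step of -2.17 (SE 0.33, edgeR adjusted p = 8.48e-06) in WT and -2.77 (SE 0.38, adjusted p = 5.94e-06) in the KO libraries, which went from 0.793 and 1.3 CPM to 0.0810 to 0.202 CPM. At PND28 WT libraries held 0.164 to 0.346 CPM and KO libraries 0.0818 to 0.189 CPM, too few counts to pass the filter for a test between them. The falls of Eya1 and Gdnf in the KO libraries stayed called with each of the 23 libraries left out in turn. Gdnf at PND14 was not called between the groups (-0.82, SE 0.40, adjusted p = 0.120).

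Ret, the GDNF receptor of the ureteric bud tip, declined later. WT libraries stood at 1.004, 1.06 and 1.37 CPM at PND7, at 0.815, 1.19, 1.42, 1.23 and 1.07 CPM at PND14, and at 0.385, 0.574, 0.492 and 0.634 CPM at PND28. The KO libraries at PND14 stood at 1.81, 1.94, 1.21, 2.19 and 1.996 CPM, 4 of the 5 above every WT library and replicate 3 within the WT range. Ret was called higher there (log2 fold change 0.68, SE 0.19, edgeR adjusted p = 0.0142). With the summed level of Y-linked genes as a covariate the call was lost (0.49, adjusted p = 0.0926). By PND28 the KO libraries were down to 0.460, 0.458, 0.737 and 0.599 CPM and overlapped WT. The fall from PND14 to PND28 was -1.14 (SE 0.24, edgeR adjusted p = 2.99e-04) in WT and -1.70 (SE 0.22, adjusted p = 1.07e-06) in KO libraries, and the difference between these falls was not called (-0.56, SE 0.32, adjusted p = 0.173).

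Of the 10 genes, 3 fell from PND7 to PND14 in WT (Six2, Eya1 and Gdnf) and none rose, where 53.1% of all 19650 genes tested were called, 27.1% as lower. From PND14 to PND28 in WT 4 fell (Cited1, Pax2, Pax8 and Ret) and Lhx1 rose, against 52.9% of all genes called, 28.1% lower and 24.7% higher. The members' shares are near or below those backgrounds, so an age change is not particular to them. In the KO libraries 3 fell at the first step (Eya1, Gdnf and Pax2, background 39.7% called and 20.5% lower), and Six2 was called as well without KO replicate 3 at PND14. At the second step Cited1, Osr1 and Ret fell and Pax8 and Lhx1 rose (background 52.5% called, 27.5% lower and 25.0% higher). Scaled by library totals alone, the share of higher calls over all genes went from 49.0% to 22.8% and from 46.8% to 21.7% at the WT steps, and from 48.3% to 33.4% at the first KO step.

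**Figure D2:**
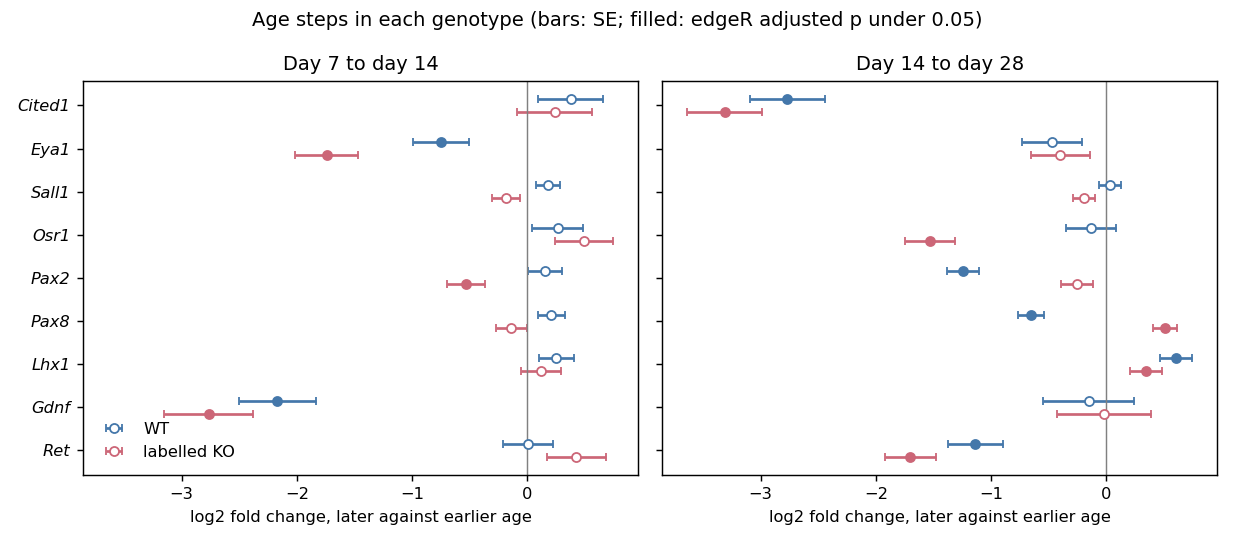
Log2 fold change of 9 of the genes from day 7 to day 14 and from day 14 to day 28, in WT (blue) and in libraries labelled KO (red), with bars of 1 SE and filled points where the edgeR adjusted p was under 0.05. Six2 is left out because all WT libraries at day 28 are at 0 counts. At the second step Pax2 and Pax8 are filled on the lower side in WT, while in the KO libraries Pax2 is open and Pax8 is filled on the higher side. Osr1 is open in WT and filled at -1.53 in the KO libraries there.

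Pax2 and Pax8 are paired-box transcription factors that specify the kidney lineage and remain on in collecting duct and tubule epithelium. Both lost expression in WT between PND14 and PND28 and their course differed in the KO libraries. Pax2 went from 67.3, 64.0, 49.4, 52.8 and 46.7 CPM in WT at PND14 to 23.7, 20.05, 26.5 and 24.5 CPM at PND28 (log2 fold change -1.24, SE 0.14, edgeR adjusted p = 1.31e-07). The KO libraries went from 43.7, 45.3, 47.9, 58.8 and 58.8 CPM to 44.3, 41.4, 39.1 and 45.9 CPM. Every KO library at PND28 was above every WT library of that age, by 1.80-fold on average (log2 fold change 0.85, SE 0.092, adjusted p = 1.17e-05). The genotype difference changed between the 2 ages by 0.99 (SE 0.19, edgeR adjusted p = 2.96e-04).

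Pax8 was also higher in the KO libraries at PND28. WT libraries fell from 122, 109, 93.8, 89.7 and 98.0 CPM at PND14 to 68.0, 64.9, 62.6 and 65.1 CPM at PND28 (log2 fold change -0.65, SE 0.11, edgeR adjusted p = 2.36e-05). The KO libraries rose from 81.0, 91.7, 77.4, 93.3 and 105 CPM to 124, 123, 115 and 149 CPM (0.51, SE 0.11, adjusted p = 3.59e-04). At PND28 the groups did not overlap and the KO level was 1.95 times the WT level (0.97, SE 0.081, adjusted p = 1.53e-06). The change of the genotype difference between these ages was 1.16 (SE 0.15, edgeR adjusted p = 2.91e-06). The KO libraries at PND28 were also above the WT libraries of PND7 (0.53, SE 0.12, adjusted p = 8.09e-04), a comparison in which genotype, age and table differ together. Exons of Pax8 overlap those of an antisense gene over 6.06% of their bases, and no setting for strand is given in the sources used here.

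Markers of several other epithelia were higher beside Pax2 and Pax8 at PND28, though not those of every collecting duct cell. Of all genes tested at that age, 32.9% were called higher and 32.8% lower. Of 10 principal cell and collecting duct markers 9 could be tested and 9 were called higher. Their summed level was 2159 to 2898 CPM in the KO and 859 to 1026 CPM in the WT libraries. None of the 10 was at 0 in all libraries of a group. Intercalated cell markers, of the other collecting duct cell type, summed to less, 427 to 514 CPM in the KO against 562 to 603 CPM in the WT libraries, with 3 called higher and 4 lower of 8. Urothelium markers, a list added after values had been seen, were called higher for 5 of 5 (59.1 to 72.4 against 14.4 to 21.5 CPM). Tubule injury markers summed to 18019 to 27275 CPM in the KO against 2726 to 3746 CPM in the WT libraries, with 7 of 8 called higher. The reproductive tract list, whose tissues also transcribe Pax2 and Pax8, summed to 57.2 to 74.3 against 25.8 to 35.7 CPM, with 3 of 6 tested genes called higher and 1 lower, and with Lcn5 at 0 in both groups and Crisp1 and Lcn8 at 0 in WT. The share of that list called lies near the 65.7% of all genes called. The part of these markers in the Pax2 and Pax8 results was not tested.

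At PND7 Pax2 stood at 42.4, 47.9 and 60.6 CPM in WT and at 90.6 and 56.6 CPM in the KO libraries. The high value is replicate 1, the library with the high collecting duct markers, and Pax2 was not called (log2 fold change 0.55, SE 0.22, edgeR adjusted p = 0.296). The value was 0.16 without that library, and 0.85 and called (adjusted p = 0.0444) without KO replicate 2. The fall of Pax2 from PND7 to PND14 in the KO libraries was -0.53 (SE 0.16, edgeR adjusted p = 0.0128). It shrank to -0.15 without KO replicate 1 at PND7, which leaves 1 KO library at that age. Pax8 stood at 116 and 81.2 CPM in the same KO libraries and at 80.1 to 96.8 CPM in WT.

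**Figure D3:**
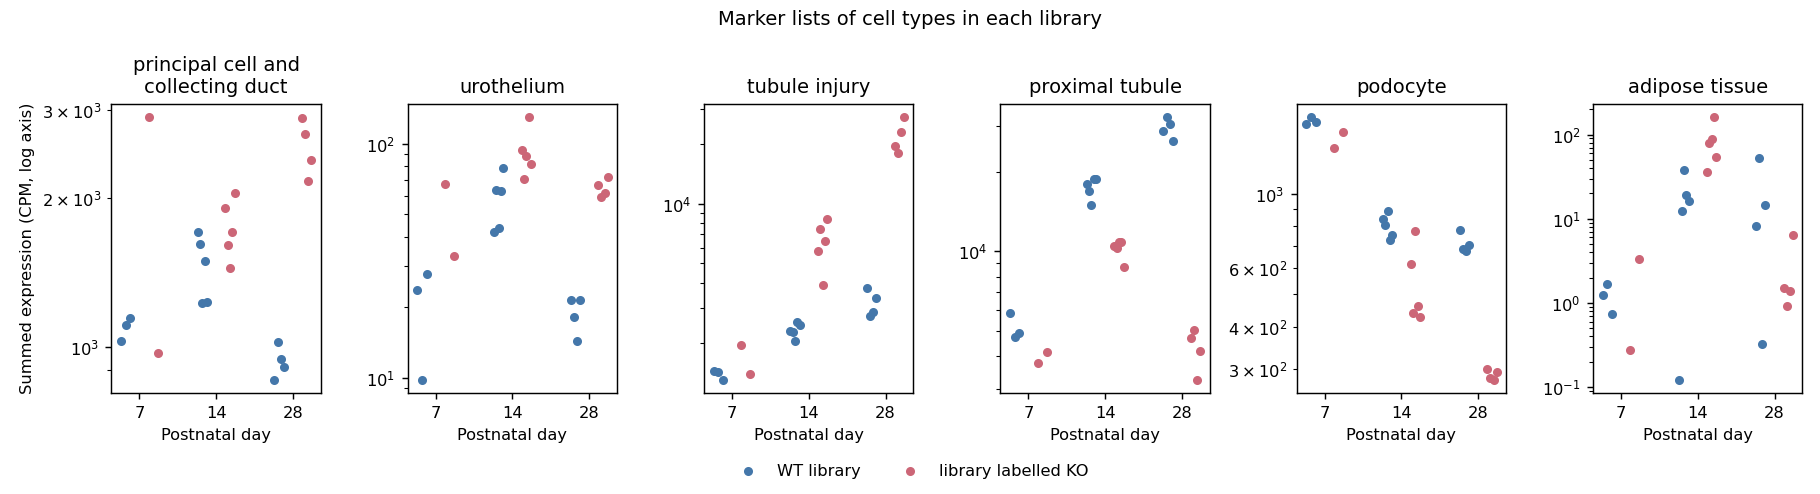
Summed expression (CPM, log axes) of 6 marker lists against postnatal day, 1 point per library, WT in blue and libraries labelled KO in red. Collecting duct markers separate the groups at day 28 (2159 to 2898 against 859 to 1026 CPM), 1 of the 2 KO libraries is high for them at day 7 (2908 CPM), and proximal tubule markers are lower in the KO libraries at day 28.

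Sall1 and Lhx1 moved the other way. Sall1, a zinc finger protein of the cap mesenchyme that is also transcribed in differentiated kidney cells, stood at 77.8, 80.9, 88.4, 75.8 and 84.5 CPM in WT at PND14 and at 63.3, 65.8, 61.1, 65.0 and 64.2 CPM in the KO libraries. No KO library reached the lowest WT library. Sall1 was called lower at -0.34 (log2, SE 0.056, edgeR adjusted p = 4.03e-04). At PND28 WT libraries stood at 102, 72.0, 77.0 and 81.8 CPM and KO libraries at 59.7, 65.1, 49.4 and 48.8 CPM, again without overlap (-0.58, SE 0.12, adjusted p = 1.60e-03). Scaled by library totals alone, Sall1 at PND28 kept its direction but was not called (-0.18, adjusted p = 0.195). Sall1 showed no called age step in either group, except in the KO libraries from PND7 to PND14 with library totals alone and from PND14 to PND28 without KO replicate 2 at PND28, and the change of its genotype difference from PND14 to PND28 was not called (-0.23, SE 0.14, edgeR adjusted p = 0.196).

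Lhx1, the LIM-homeobox gene that patterns the renal vesicle, rose in WT between PND14 and PND28. WT libraries had 17.8, 17.8 and 17.2 CPM at PND7, 23.9, 25.5, 20.8, 17.3 and 17.4 CPM at PND14 and 32.5, 34.7, 31.5 and 29.0 CPM at PND28. The first step was not called (0.25, edgeR adjusted p = 0.167), and the step from PND14 to PND28 was 0.60 on the log2 scale (SE 0.14, adjusted p = 7.43e-04). The KO libraries lay below WT at every age: 14.6 and 12.3 CPM at PND7, 15.9, 16.2, 12.5, 14.3 and 14.02 CPM at PND14, and 18.5, 25.3, 17.0 and 13.1 CPM at PND28.

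Lhx1 was called lower in the KO libraries at PND14 (-0.51, SE 0.11, edgeR adjusted p = 3.33e-03) and at PND28 (-0.79, SE 0.16, adjusted p = 1.26e-03), but not at PND7 (-0.39, SE 0.11, adjusted p = 0.199). The KO libraries also rose from PND14 to PND28 (0.34, SE 0.14, edgeR adjusted p = 0.0408), a call that was lost in turn without KO replicates 3, 4 or 5 at PND14 and 1 or 2 at PND28, with 0.17 and adjusted p = 0.270 without the last of these. It was also lost with library totals alone (0.33, adjusted p = 0.0507) and with the Y-linked covariate (0.24, adjusted p = 0.184). The change of the genotype difference between those ages was not called (-0.26, SE 0.20, adjusted p = 0.306). Without KO replicate 2 at PND28, the KO library with the highest Lhx1, it was called (-0.45, adjusted p = 0.0422). Markers of the loop of Henle and distal tubule were lower in the KO libraries at PND28, with 6 of 8 called lower and 1 higher, summing to 2492 to 3722 against 7563 to 8358 CPM. Podocyte markers were called lower for 7 of 7 (278 to 299 against 674 to 778 CPM). Of all genes tested at that age, 32.8% were called lower. No marker of either list was at 0 in a whole group, and their part in the Sall1 and Lhx1 results was not tested.

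Osr1, a zinc finger gene of the earliest kidney mesenchyme and also of connective tissue, was higher in the KO libraries at PND14 and did not stay so. WT libraries stood at 1.20, 1.48, 1.71, 0.969 and 1.92 CPM and KO libraries at 2.64, 2.22, 2.76, 2.5 and 2.29 CPM at PND14, without overlap. Osr1 was called higher at 0.77 (log2, SE 0.18, edgeR adjusted p = 3.66e-03). At PND28 WT libraries had 1.21, 1.75, 0.819 and 1.53 CPM and KO libraries 1.08, 0.818, 0.662 and 0.856 CPM, with overlap. Osr1 at PND28 lay at the threshold (-0.64, SE 0.26, adjusted p = 0.05002 and not called), and was called without WT replicate 3 (-0.81, adjusted p = 0.0149) and also without KO replicate 1.

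Between PND14 and PND28 Osr1 fell in the KO libraries (-1.53, SE 0.21, edgeR adjusted p = 3.01e-06), and the genotype difference changed by -1.40 (SE 0.30, adjusted p = 7.17e-04). Adipose markers, a list added after values had been seen, were called higher at PND14 for 6 of 6, summing to 35.8 to 162 CPM in KO and 0.121 to 37.6 CPM in WT libraries. Ucp1, the brown fat uncoupling protein, spanned 20.2 to 85.3 CPM in KO and 0.0521 to 18.9 CPM in WT libraries. Without KO replicates 3 and 4 Osr1 was called at 0.72 (adjusted p = 0.0202), and of the 3 KO libraries that remain, 2 had adipose sums above every WT library. Fibroblast and pericyte markers were called higher for 6 of 9 (2888 to 4112 against 1764 to 2284 CPM). Of all genes tested at PND14, 19.1% were called higher. The part of either list in the Osr1 result was not tested.

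Counted over the members, at PND7 0 of 10 were called between the groups with edgeR, where 0.0217% of all 18420 genes were called. An unadjusted p under 0.05 was found for 3 (Osr1, Pax2 and Lhx1), against 15.7% of all genes, and DESeq2 called 1, Lhx1. At PND14 4 of the 9 tested were called, 2 higher (Osr1 and Ret) and 2 lower (Sall1 and Lhx1), where 36.3% of all 17702 genes were called, 19.1% higher and 17.2% lower. At PND28 4 of the 8 tested were called, 2 higher (Pax2 and Pax8) and 2 lower (Sall1 and Lhx1), where 65.7% of all 16797 genes were called, 32.9% higher and 32.8% lower. Over all genes 52.5% of the calls at PND14 and 50.1% of those at PND28 were on the higher side. Scaling by library totals alone, which moves the median of all genes to 0.14 and 0.40, gave 78.7% and 77.4%. These shares are near the backgrounds and are no result about the members as a set.

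The groups did not overlap for Osr1, Sall1 and Lhx1 at PND14, where 24.2% of all genes did not overlap. At PND28 they did not overlap for Pax2, Pax8, Sall1 and Lhx1, against 60.4% of all genes. At PND7, with 3 and 2 libraries, they did not overlap for Cited1, Eya1, Osr1 and Lhx1, against 34.6%. The median log2 fold change of the members tested was 0.14 at PND7, -0.18 at PND14 and -0.51 at PND28, beside 0.0098, -0.0047 and -0.0026 over all genes tested.

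From PND14 to PND28 the genotype difference changed for 3 of the 10 (Osr1, Pax2 and Pax8, background 41.4%, of which 50.9% were on the higher side, or 75.0% with library totals alone). From PND7 to PND14 edgeR called it for 0 of 10 (background 4.96%), 3 had an unadjusted p under 0.05 (Pax2, Eya1 and Sall1, against 20.1% of all genes), and DESeq2 called 1, Pax2. There 54.1% of the calls over all genes were on the higher side, or 89.4% with library totals alone. Of the 7 genes that fell in WT at one of the steps, Pax2 and Pax8 were the ones called higher in the KO libraries at PND28. Cited1, Eya1 and Ret were not called there, and Six2 and Gdnf had too few counts for a test. Set against WT at PND7, the KO libraries at PND28 were called lower for Six2 (-3.46), Cited1 (-2.94), Eya1 (-1.69), Sall1 (-0.37), Gdnf (-3.02) and Ret (-1.02, all log2 fold changes from edgeR). Pax8 was called higher there, as given above. The background was 60.0% called, 30.8% lower and 29.2% higher, with 48.7% of the calls on the higher side, or 36.2% with library totals alone.

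**Figure D4:**
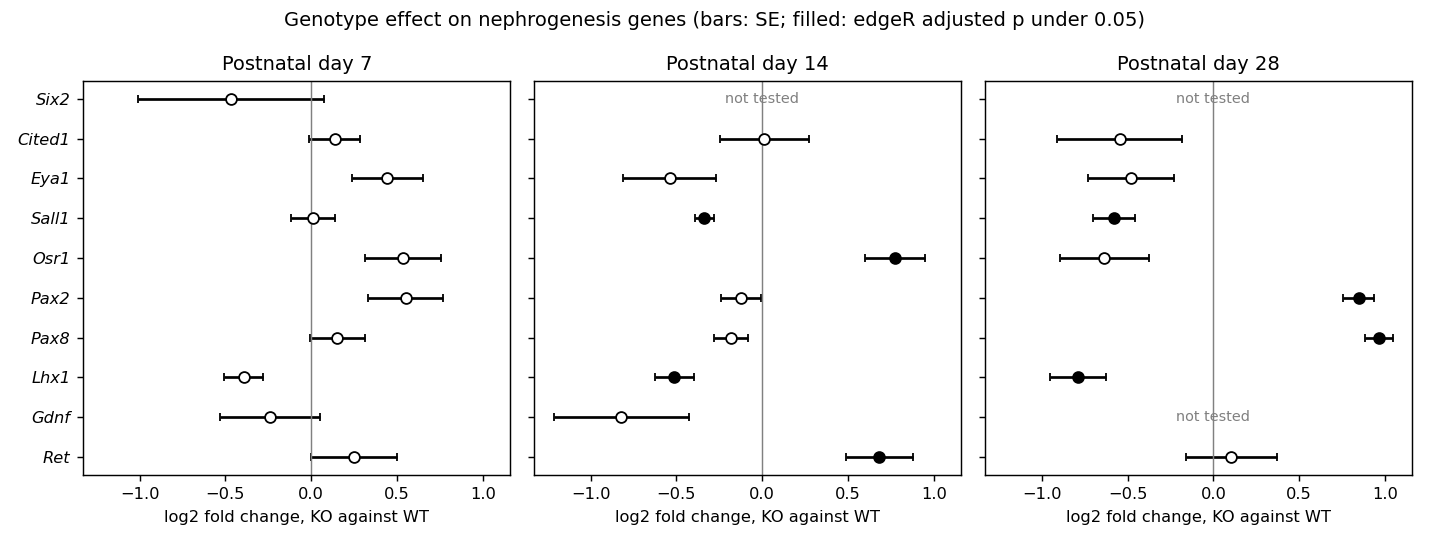
Log2 fold change of libraries labelled KO against WT for the 10 genes at each age, with bars of 1 SE and filled points where the edgeR adjusted p was under 0.05. No gene is filled at day 7, Osr1 and Ret are filled on the higher side and Sall1 and Lhx1 on the lower side at day 14, and Pax2 and Pax8 on the higher side and Sall1 and Lhx1 on the lower side at day 28.

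The partners of GDNF and RET did not move as 1 block. Gfra1, the co-receptor that binds GDNF, stood at 6.01 ± 0.724 CPM (SD, n = 5) in WT and 14.1 ± 3.46 CPM (n = 5) in KO libraries at PND14 and was called higher there (log2 fold change 1.24, SE 0.16, edgeR adjusted p = 5.28e-05) and at PND28 (1.54, SE 0.19, adjusted p = 3.48e-05). Of the RET targets, Etv4 was called higher at both ages (0.81 and 1.68), Spry1, an inhibitor of the pathway, was called higher at PND28 (1.16, 91.9 ± 17.9 against 41.1 ± 4.08 CPM, n = 4 each), and Etv5 was called lower at PND28 (-0.64). Wnt11, the tip WNT that RET signalling maintains, was called lower at PND14 (-1.29, 5.14 ± 1.69 against 12.7 ± 4.32 CPM, n = 5 each) and at PND28 (-1.34). The PND28 call of Wnt11 was lost without WT replicates 2 and 4 together (-0.81, adjusted p = 0.0701). At PND14 Etv5 (-0.24, adjusted p = 0.0845) and Spry1 (0.19, adjusted p = 0.103) were not called, though Etv5 was in the joint fit (adjusted p = 0.0389) and Spry1 with library totals alone (0.33, adjusted p = 0.0160) and without WT replicate 1 (adjusted p = 0.0430).

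Among all 16 other genes of GDNF-RET signalling and the ureteric bud, 7 were called higher and 2 lower at PND14, and 9 higher and 4 lower at PND28, where 36.3% and 65.7% of all genes tested were called. The list's median log2 fold change was 0.14 and 0.44. Among the rises at PND28 were those of Sox9 (8.67 ± 2.90 against 0.805 ± 0.146 CPM, log2 fold change 3.42), a bud tip factor that also marks injured tubules, and of Gata3 (72.9 ± 8.72 against 13.7 ± 0.730 CPM, 2.41), a collecting duct lineage factor. At PND14 the log2 fold changes of Sox9 and Gata3 were 1.64 and 1.32. The largest falls at PND28 were those of Robo2 (-1.34), Wnt11 and Calb1 (-1.21), a calcium-binding protein of the distal tubule. The summed level of the list went the other way at PND28, at 793 to 1279 CPM in KO against 1485 to 1672 CPM in WT libraries. The collecting duct and injury marker sums given beside Pax2 were higher there, and their part in these changes was not tested.

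In the list of 18 other cap mesenchyme genes the calls went both ways, 3 higher and 4 lower of 16 tested at PND14 and 4 higher and 7 lower of 15 tested at PND28, with medians of -0.07 at both ages. These shares lie near the 36.3% and 65.7% called over all genes. Igf2bp1, an RNA-binding protein of fetal tissue, was higher at PND28 (12 ± 2.74 against 3.56 ± 0.547 CPM, log2 fold change 1.75), as were Eya4 (0.84) and Hoxa11 (0.71). Meox1 (-1.76, 4.48 ± 0.786 against 15.1 ± 2.98 CPM), Dpf3 (-1.69) and Fgf9 (-0.88), a growth factor that maintains progenitors, were lower. Among the genes called at PND14 were Traf1 (0.60) and Igf2bp1 (0.47) on the higher side and Uncx (-1.55), Tmem100 (-0.87) and Dpf3 (-0.70) on the lower side. Traf1 and Tmem100 were each called in only 5 of the 10 fits that left out a library. The Traf1 call was lost without WT replicate 2, 3 or 5 or KO replicate 2 or 5 (adjusted p up to 0.0676), and that of Tmem100 without WT replicate 1 or 2 or KO replicate 2, 4 or 5 (up to 0.115) and with DESeq2 (0.0738).

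Wt1, which acts in progenitors and then in podocytes, was called lower at both ages (-0.65 and -0.57), and so were podocyte markers, 5 of 7 at PND14 and 7 of 7 at PND28. Of all genes tested, 17.2% and 32.8% were called lower at these ages.

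The list of 19 renal vesicle and early nephron genes had 5 higher and 5 lower of 17 tested at PND14, and 7 higher and 6 lower of 17 at PND28 (all genes 36.3% and 65.7% called), with medians of -0.04 and 0.23. Wnt4, the signal that drives the mesenchyme to become epithelium, stood at 18.2 ± 6.62 CPM in KO and 2.56 ± 2.13 CPM in WT libraries at PND28 (log2 fold change 2.82, SE 0.45, edgeR adjusted p = 2.26e-04; 3.57 without WT replicate 4, the library with the high adrenal cortex sum), after 18.8 ± 3.26 against 12.1 ± 2.58 CPM at PND14 (0.65, adjusted p = 3.23e-03, but 0.0696 in the joint fit). Bmper (1.66) and Cdh6 (1.03), a cadherin of the renal vesicle, were higher at PND28, and Dkk1 (2.44), a WNT inhibitor, and Cdh6 (0.45) at PND14. Irx3 (-1.18), Foxc2 (-0.72) and Osr2 (-0.54) were lower at PND28, and Irx1 (-0.61) and Foxc2 (-0.55) at PND14. Collecting duct, tubule injury and fibroblast marker sums were higher in the KO libraries at PND28. Their part in the Wnt4 result and in the other changes of this list was not tested.

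Of 12 stromal progenitor genes 3 were called higher and 1 lower at PND14, and 5 higher and 5 lower at PND28, beside 36.3% and 65.7% called over all genes, with medians of 0.01 and -0.02. Foxd1, which defines this lineage, was not called at PND14 (-0.28, edgeR adjusted p = 0.161) and was called lower at PND28 (-0.64, adjusted p = 0.0107). At PND14 Foxd1 was called without KO replicate 1 (-0.40, adjusted p = 0.0354). Aldh1a2, the retinoic acid synthesis enzyme, was higher at both ages (34.0 ± 2.98 against 16.1 ± 2.26 CPM at PND14 and 33.3 ± 8.37 against 8.59 ± 2.26 CPM at PND28, log2 fold changes 1.10 and 1.95). Sfrp1, a WNT antagonist, was higher at PND14 (0.46) and lower at PND28 (-1.05), and Ntn1 was lower at both (-0.29 and -0.999). Smoc2 was higher at both (0.29 and 1.51), but its PND14 call was lost in 5 of the 10 fits that left out a library (WT replicate 1, 4 or 5 or KO replicate 3 or 5, adjusted p up to 0.0912) and in the joint fit (adjusted p = 0.224). Fat4 was higher (1.26) and Tcf21 lower (-0.90) at PND28.

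Several of the lower calls in these lists rest on the scaling. With library totals alone, Etv5 (-0.24), Wt1 (-0.17), Foxc2 (-0.31), Osr2 (-0.14), Foxd1 (-0.24) and Tcf21 (-0.51) kept their direction at PND28 and were not called. The same held at PND14 for Tmem100 (-0.73) and Ntn1 (-0.14). With the Y-linked covariate Traf1 (0.46) and Tmem100 (-0.59) were not called at PND14.

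**Figure D5:**
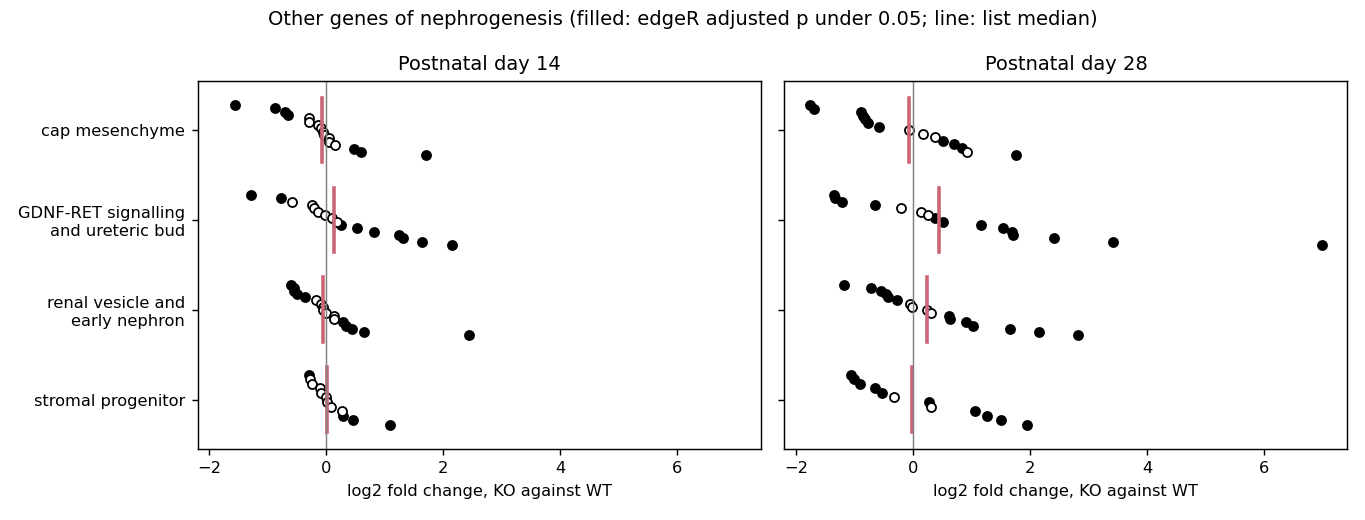
Log2 fold change of libraries labelled KO against WT for each tested gene of 4 lists of nephrogenesis at day 14 and day 28, filled where the edgeR adjusted p was under 0.05, with a red line at each list's median. Filled points lie on both sides of 0 in every list, and the median of the GDNF-RET and ureteric bud list is 0.14 at day 14 and 0.44 at day 28.

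The genes whose course over the 23 libraries was most like a member's differed from member to member, by Pearson's r of log2(CPM + 0.5) among genes of at least 1 CPM. They were Cdk9 (r = 0.935) and Pdgfrl (0.931) for Pax2, Vasn (0.920) and Tmem63a (0.913) for Pax8, and Ncoa3 (0.896) and Mink1 (0.894) for Sall1. For Lhx1 they were Mlh3 (0.928) and Malrd1 (0.910), for Ret Hhip (0.909) and Aldh1a3 (0.896), and for Gdnf Tbc1d24 (0.958) and Zbtb7c (0.955). For Cited1 they were Cxx1a (0.948) and Rpl28 (0.935), for Eya1 Zeb1 (0.931) and the gene model RP23-471B6.2 (0.926), and for Six2 the model RP23-407I21.4 (0.844) and Sumf2 (0.839). Among the genes most like Osr1 was Cox8b (0.789), which is 1 of the 6 adipose markers. The libraries share age, genotype, table and depth, so these values only describe likeness. Among the members themselves the closest pairs were Eya1 with Gdnf (r = 0.813), Cited1 with Ret (0.794), Osr1 with Ret (0.722), Six2 with Gdnf (0.681) and Pax2 with Pax8 (0.647).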

How the data were processed

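Total RNA of whole mouse kidneys was sequenced from TruSeq libraries. The deposited tables, 1 per age, hold raw counts per gene; per the submitters' processing notes, STAR 2.5, featureCounts of Subread 1.5.0-p1 and the mm10 genome were used, and settings for strand and multiply mapped reads are not given in the sources used here. Counts of 23 of the 24 labelled samples were used, with groups taken from the labels. Genotype was tested within each age with edgeR 4.0.16 (R 4.3.3, limma 3.58.1): low-count filter, TMM, quasi-likelihood F test, Benjamini-Hochberg adjustment over all genes tested and a threshold of 0.05. Age steps and changes of the genotype difference came from 1 joint fit of the 6 groups. Levels are CPM with TMM factors over all 23 libraries, and an exact 0 was read against a floor of 3 counts, which covers counting error only. No 2 libraries of a group agreed within sampling noise.

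The 10 genes, the 4 pathway lists and the marker lists were chosen with earlier results of these data known, and the adipose and urothelium lists were added after values were seen. Named are all members, Glis3, direct partners (Gfra1, Etv4, Etv5, Spry1, Wnt11, Wnt4, Wt1 and Foxd1 among them), up to 3 called genes per direction, list and later age with a mean of at least 0.5 CPM, and the 2 genes most like each member. Some genes that this rule names are not reported here. Alternatives were DESeq2 1.42.0, median-ratio size factors, library totals alone, no low-count filter, the joint fit, the replicate number as a block, a Y-linked covariate and each library left out. Leaving out KO replicates 3 and 4 at PND14 (highest podocyte and adipose sums of the group), or WT replicates 2 and 4 at PND28 (highest adipose and adrenal cortex sums), was chosen after seeing the data. The tests were also run on simulated counts whose spread was taken from these data, and that outcome is not reported here. Promoters came from a RefSeq table of GRCm38.p6, and exon lengths and overlaps from the GENCODE mouse annotation.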

Additional observations from a re-analysis of the deposited data

Results flagged for a closer look

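Six2 in KO replicate 3 at PND14 stood apart from its group, at 0.239 CPM (19 counts) against 0 to 0.0370 CPM in the other 4 libraries. It was the only value set apart among 40 gene and group combinations of 4 or 5 libraries examined, and chance alone sets about 1 in 20 such groups apart.

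For 3 genes the difference between KO and WT libraries itself differed between PND14 and PND28, by the interaction in edgeR's joint fit. Osr1 changed by -1.40 on the log2 scale (adjusted p = 7.17e-04), from above WT in 5 of 5 KO libraries at PND14 to overlapping WT at PND28. Pax2 changed by 0.99 (adjusted p = 2.96e-04) and Pax8 by 1.16 (adjusted p = 2.91e-06), each from overlap at PND14 to above WT in 4 of 4 KO libraries at PND28.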

How the results depend on the processing

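The 8 genotype calls at PND14 and PND28 kept their direction and their call under every alternative run, except Ret at PND14 with the Y-linked covariate (0.49) and Sall1 at PND28 with library totals alone (-0.18). Over the alternatives the adjusted p reached at most 0.000296 for Pax2 and 0.000144 for Pax8 at PND28. It ranged from 0.00264 to 0.0926 for Ret at PND14, from 3.40e-05 to 0.195 for Sall1 and from 0.0149 to 0.510 for Osr1 at PND28. For the age steps it ranged from 0.00451 to 0.110 for Six2 and from 7.47e-04 to 0.0853 for Eya1 in WT, and from 0.00193 to 0.587 for Pax2 (first step) and from 0.00436 to 0.270 for Lhx1 (second step) in KO libraries. The interactions of Osr1, Pax2 and Pax8 stayed called with each library left out (-1.57 to -1.24, 0.91 to 1.05 and 1.08 to 1.23). With DESeq2 1 member was called at PND7 and 1 for the change of the genotype difference from PND7 to PND14, and leaving out single libraries gave 0 to 1 in both, the added member being Pax2 each time. At the second WT step Eya1 was called too with library totals alone, and Six2 without KO replicate 3 at PND14. The Y-linked covariate added Pax8 at PND14 (-0.31, adjusted p = 0.0308).

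Directions of members that were not called turned as follows, and the cause was not tested. Six2 at PND7 went to 0.61 and Cited1 at PND14 to -0.14 with the Y-linked covariate. With library totals alone, Sall1 at PND7 went to -0.0192, Pax2 at PND14 to 0.0179 and the Sall1 interaction from PND14 to PND28 to 0.0124, and without the low-count filter Sall1 at PND7 went to -0.0067. With single libraries left out at PND7, Sall1 ranged from -0.21 (without KO replicate 1) to 0.20, Pax8 from -0.14 (without KO replicate 1) to 0.39, Gdnf from -0.63 to 0.0755 (without KO replicate 1) and Ret from -0.0405 (without KO replicate 2) to 0.49. Cited1 at PND14 ranged from -0.13 (without WT replicate 2) to 0.17 and was -0.23 without KO replicates 3 and 4, and Ret at PND28 ranged from -0.0294 (without KO replicate 3) to 0.22.

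Calls over all genes at PND7 depended most on the setting: 4 in the reported fit, 863 with DESeq2, 221 without the filter, 353 in the joint fit, 7 with totals alone, 1 with the Y-linked covariate and 0 to 1759 with single libraries left out (lowest without WT replicate 2, highest without KO replicate 2). For the change of the genotype difference from PND7 to PND14 the 975 calls became 1573, 1905 and 420 with DESeq2, totals alone and the Y-linked covariate, and as few as 222 without KO replicate 1 at PND7. The 7803 calls of the first KO step became 5066 without KO replicate 2 at PND7.

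Replicate numbers are shared between the groups, but they did not pair the libraries: deviations of same-numbered libraries correlated at -0.15 and 0.07 at PND7, at -0.13 to 0.28 at PND14 and at 0.06 to 0.19 at PND28, and not every library correlated best with its own number. With the replicate number as a block, 0, 4 and 5 members were called at PND7, PND14 and PND28. The added call was Osr1 at PND28 (-0.61, adjusted p = 0.0490), which the joint fit called too (-0.63, adjusted p = 0.0223). Depth limits Six2, with 22 counts at most in any library, and Gdnf at PND28.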

Other observations

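Cell cycle genes, which mark dividing cells of any type, fell late in both groups and differed by label at PND14. From PND14 to PND28 all 8 proliferation markers were called lower in WT and in the KO libraries, where 28.1% and 27.5% of all genes were called lower. Of 8 proliferation markers 8 were called higher in the KO libraries at PND14 (19.1% of all genes), where they summed to 343 to 392 CPM against 228 to 283 CPM in WT. Tubule injury, fibroblast and macrophage marker sums were higher there too, and their part in this difference was not tested. At PND28 3 of the 8 were called lower and none higher (58.0 to 118 against 96.9 to 136 CPM), near the 32.8% of all genes called lower. At PND7 edgeR called none (322 and 435 against 296 to 336 CPM). Macrophage markers were called higher for 6 of 7 at PND14 and at PND28 (19.1% and 32.9% of all genes called higher), summing to 246 to 430 CPM in KO and 149 to 172 CPM in WT libraries at the last age.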
